A study of Mus musculus with 36 samples.

Results

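Receptors that position developing B cells were followed in the mouse pre-B cell line B3. The members were 9 genes listed by symbol, namely Cxcr4, Cd44, Itga4, Itgb1, Ccr7, Ccr9, Cd69, S1pr1 and Ptk2, and 6 of the 9 had a row among the 12762 genes of the deposited table. Ccr7, Ccr9 and Ptk2 had no row under their symbol or Ensembl identifier and are not analysed here. B3 cells carried 1 of 2 retroviral vectors of the MSCV type. The Ikaros line expressed HA-tagged Ikaros fused to the hormone-binding domain of the estrogen receptor (ERt2), with GFP made from the same transcript, and the control line expressed ERt2 without Ikaros. The drug 4-hydroxy-tamoxifen (4-OHT, 0.5 uM), which carries the fusion protein into the nucleus, was given to both lines, and cells were collected at 0, 2, 6, 12, 18 and 24 h, with 3 libraries for each of the 12 groups. The replicates are labelled as batches 1, 2 and 4 at 0 h and batches 1, 3 and 4 later, called replicates 1 to 3 in that order. These are called culture batches below. Whether a batch number at 0 h and later stands for the same culture is not stated. The labels list 4-OHT for every library, but by the study's methods the 0 h cells had no drug and came from separate collections, so a comparison with 0 h also compares occasions.

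Bone marrow stroma makes the chemokine CXCL12, and its receptor CXCR4 holds B cell precursors in the niche. VLA-4, the pair of integrin chains alpha 4 (Itga4) and beta 1 (Itgb1), anchors them to VCAM-1 and fibronectin, and CD44 binds hyaluronan in the matrix. Exit into blood runs over S1PR1, a receptor for sphingosine 1-phosphate, and CD69 binds S1PR1 and takes it off the cell surface.

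The promoters of 4 of the 6 genes were in the RefSeq table (GRCm38.p6), and 2 of them are printed because Cd44 was the gene that was lower in Ikaros cells at all 6 times and Cxcr4 the one with the largest difference at 24 h. Each run is the 250 bases before the gene start, 5′ to 3′ on the gene's strand, and capitals mark TGGGAA, the core letters bound by Ikaros, or its reverse complement. The Cd44 window is chr2:102901666-102901915 and the Cxcr4 window is chr1:128592300-128592549, both on the reverse strand.
Cd44: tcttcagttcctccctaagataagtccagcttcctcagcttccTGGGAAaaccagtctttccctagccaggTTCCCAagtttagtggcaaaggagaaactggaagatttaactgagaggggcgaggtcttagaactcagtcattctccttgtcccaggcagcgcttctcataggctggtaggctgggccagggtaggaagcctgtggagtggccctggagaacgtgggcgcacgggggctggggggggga
Cxcr4: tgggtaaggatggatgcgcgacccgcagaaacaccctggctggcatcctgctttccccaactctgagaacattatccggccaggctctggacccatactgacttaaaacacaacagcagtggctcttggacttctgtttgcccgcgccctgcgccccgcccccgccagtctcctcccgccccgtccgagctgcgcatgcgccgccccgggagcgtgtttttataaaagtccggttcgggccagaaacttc
The Cd44 window held 2 matches, 1 in the printed direction with its first base at -207 from the start and 1 on the opposite strand at -179. No match to TGGGAA lay in the windows of Cxcr4, Itga4 or Itgb1, and 21.6% of all 32851 promoter windows in the table held at least 1 on either strand. The Fox factor core GTAAACA was in 0 of the 4 windows and in 3.17% of all windows. These matches describe letters and not bound sites.

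Values below are log2 expression levels as the authors normalized them for GC content, gene length and library preparation, plus a constant, so that levels are relative and differences of 1 mean a 2-fold change. The base of the log is not stated in the sources used here and was taken as 2, as cqn, the normalization tool, builds it. The files used here give no counts, so the depth that each library reached cannot be read from them. Tests are two-sided limma contrasts with p-values adjusted over all genes, and a gene is "called" at an adjusted p under 0.05. In bulk RNA, fewer cells with a transcript and less transcript per cell cannot be told apart. Ikzf1, the gene for Ikaros, stood between 13.95 and 14.85 in the control libraries and between 19.63 and 20.93 in the Ikaros libraries, so that every library lay on the side of the line in its label. These levels hold reads of the vector and of the cell's own gene together. Of the B lineage precursor markers 9 of 9 were in the table, and their mean in a library ran from 13.66 to 15.22. Among them Cd79a lay at 17.79 to 18.70, above the median of the gene means of 11.72. No T cell marker (0 of 7) and no stromal marker (0 of 7) had a row, while 1 of 7 myeloid and 2 of 6 erythroid markers did. The myeloid marker was Lyz2, at 8.82 to 9.86 in Ikaros cells at 0 h against 6.17 to 6.64 in control cells, and at 4.06 to 5.26 against 6.80 to 8.64 at 24 h. The erythroid markers were the globin genes Hbb-b1, at 3.79 to 7.51 over all libraries, and Hbb-b2, at 8.44 to 14.44. Their mean in a library was 6.53 to 7.67 in Ikaros cells at 0 h against 9.54 to 9.99 in control cells. At 24 h that mean was 9.83 to 10.48 in Ikaros cells against 8.32 to 9.29. It thus changed from the lower to the higher side in Ikaros cells, as S1pr1 and Itga4 did. The mean does not show which of the 2 globin genes changed sides. The mean of the B lineage markers was 14.93 to 15.22 in Ikaros cells at 24 h against 14.23 to 14.35 in control cells. The part of these markers in the results was not tested.

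Averaged over all libraries on this length-normalized scale, the levels were 13.88 for Cd69, 13.58 for Itgb1, 13.42 for Cxcr4, 12.84 for Itga4, 11.60 for Cd44 and 9.83 for S1pr1, at percentiles 84.9, 80.9, 78.7, 69.8, 48.3 and 27.4 of the gene means. The lines differed in 3 of the 6 genes at 0 h, against 8.33% of all genes tested, in 3 after 2 h (19.1%), in 3 after 6 h (37.3%), and in 5 after 12, 18 and 24 h each (45.8%, 58.2% and 62.9%). At 24 h, 3 were higher in Ikaros cells, where 31.0% of all genes were, and 2 were lower, where 31.9% were. The libraries of the lines did not overlap in 4 of the 6 genes at 0 h, in 3 after 2 h and 6 h each, in 5 after 12 h and 18 h each and in 6 after 24 h. Over all genes that share was 32.7%, 27.9%, 41.0%, 51.0%, 64.5% and 71.0%. The median difference of the 6 genes at 24 h was -0.03, and that of all genes was -0.01. With so large a share of all genes called at the late times, these counts describe the receptors and were not shown to be particular to them.

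**Figure D1:**
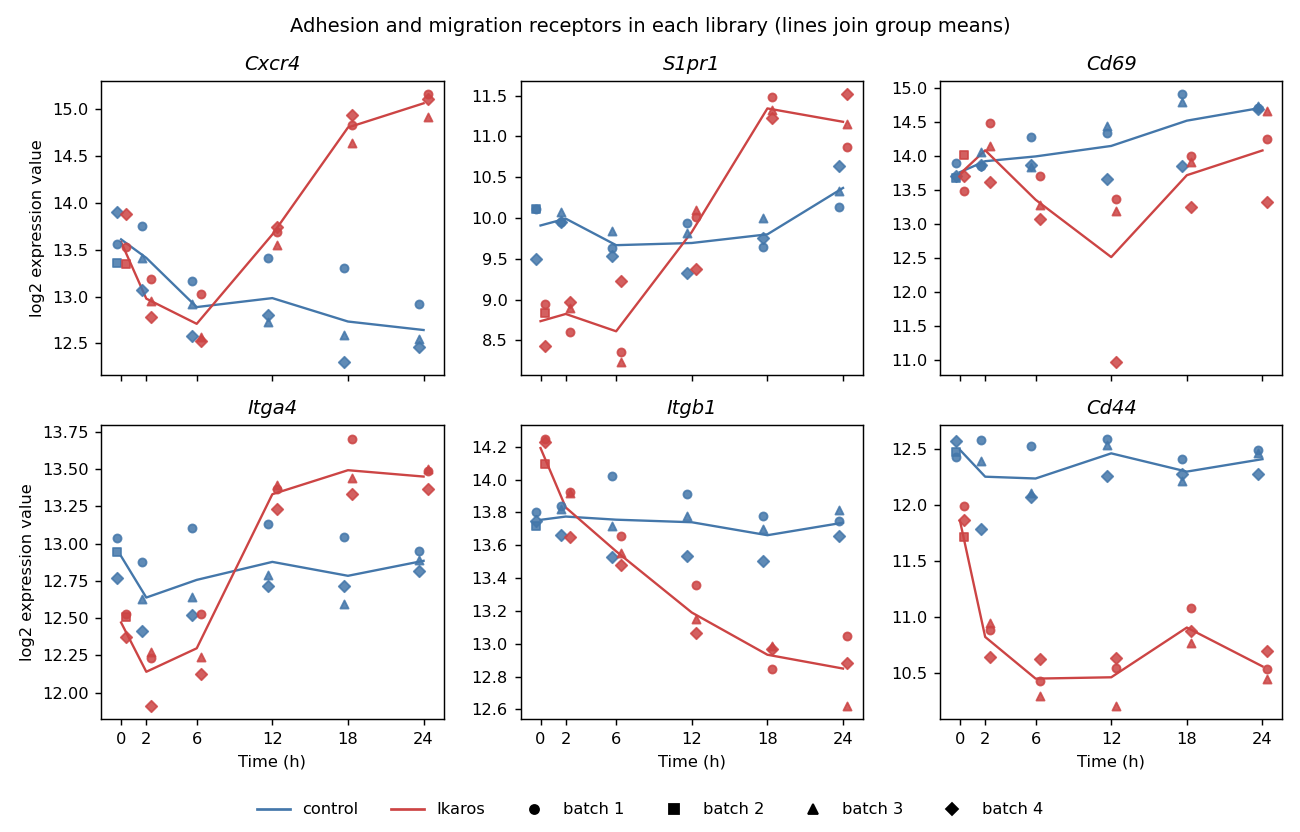
Log2 expression level of the 6 receptor genes (y axis, a scale of its own in each panel) against time in hours, 1 point for each library, with shape for culture batch and lines through the means of the control (blue) and Ikaros (red) groups. Cxcr4 and S1pr1 end above the control libraries, Cd44 and Itgb1 below them, and 1 Ikaros library at 12 h holds Cd69 at 10.98.

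Cxcr4 encodes the CXCL12 receptor (ENSMUSG00000045382; GRCm38 chromosome 1, 128588199 to 128592293, reverse strand, protein coding). In control cells its level was 13.57, 13.36 and 13.90 at 0 h and 12.92, 12.54 and 12.47 at 24 h, in the order of replicates 1 to 3. In Ikaros cells it was 13.53, 13.35 and 13.88 at 0 h and 15.16, 14.92 and 15.11 at 24 h. The lines overlapped at 0, 2 and 6 h, and from 12 h on each Ikaros library lay above all control libraries of its time. Between these ends the Ikaros libraries went through 13.03, 12.57 and 12.52 at 6 h, then 13.69, 13.55 and 13.75 at 12 h, then 14.84, 14.65 and 14.94 at 18 h.

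The Ikaros minus control difference of Cxcr4 was -0.03 at 0 h (95% interval -0.50 to 0.44), -0.44 after 2 h and -0.18 after 6 h, none of them called. It was 0.68 at 12 h (limma, SE 0.23, adjusted p 0.0167), 2.07 at 18 h (adjusted p 1.50e-08) and 2.42 at 24 h (adjusted p 6.39e-10), when Cxcr4 was 5.36-fold higher in Ikaros cells. Within batches 1, 3 and 4 the difference at 24 h was 2.24, 2.38 and 2.65. At 24 h Ikaros cells stood 1.48 above their own 0 h cells (limma, adjusted p 3.19e-06), after a fall by 0.87 at 6 h (adjusted p 0.00428), and control cells stood at -0.97 against theirs (adjusted p 0.0513). With the culture batch as a block the control value was -1.04 and was called (limma, adjusted p 0.0158), as were those at 6 h (-0.79, adjusted p 0.0123) and 18 h (-0.95, adjusted p 0.0262), which stood at -0.72 and -0.88 without the block (adjusted p 0.0608 and 0.0842). That block takes a batch number at 0 h and later as the same batch, which is not stated. With separate blocks for the 0 h cultures the difference of -0.44 at 2 h was called (limma, adjusted p 0.0342).

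The call at 12 h was not kept when only the compared groups were fitted (limma, adjusted p 0.0501), without replicate 2 (0.61, adjusted p 0.200), without replicate 3 (0.55, adjusted p 0.0944) or without the Ikaros library of batch 4 alone (0.64, adjusted p 0.0520). The fall at 6 h in Ikaros cells was not called without replicate 2 (-0.92, limma, adjusted p 0.0873) or replicate 3 (-0.63, adjusted p 0.0787).

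S1pr1, the egress receptor (ENSMUSG00000045092; chromosome 3, 115710433 to 115715072, reverse strand, protein coding), changed sides. At 0 h its level was 10.12, 10.11 and 9.50 in control cells and 8.94, 8.83 and 8.44 in Ikaros cells. At 18 h it was 9.65, 10.00 and 9.75 in control cells and 11.48, 11.32 and 11.22 in Ikaros cells. All Ikaros libraries were the lower ones at 0, 2 and 6 h and the higher ones at 18 and 24 h, with overlap at 12 h.

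The difference of S1pr1 was -1.17 at 0 h (limma, SE 0.24, adjusted p 0.00120), -1.17 at 2 h (adjusted p 0.000693) and -1.06 at 6 h (adjusted p 0.000880). It was 0.13 at 12 h, with a 95% interval of -0.35 to 0.62. It was 1.54 at 18 h (limma, adjusted p 3.04e-06), or 2.91-fold higher in Ikaros cells, and 0.81 at 24 h (adjusted p 0.00407). Ikaros cells rose by 2.61 from their own 0 h to 18 h (limma, adjusted p 4.88e-10), or 6.09-fold, and stood 2.44 above it at 24 h (adjusted p 1.03e-09). The control libraries at 24 h, at 10.14, 10.33 and 10.64, were 0.46 above those at 0 h, which was not called (limma, adjusted p 0.455).

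At 6 h the Ikaros library of batch 4 stood at 9.23 and the other two at 8.36 and 8.24, and the differences within batches 1, 3 and 4 were -1.27, -1.60 and -0.30. The call at 6 h was not kept with only the compared groups (limma, adjusted p 0.0551) or without replicate 2 (-0.78, adjusted p 0.117). Those at 0 h and 2 h were not kept without replicate 1 (limma, adjusted p 0.0683 and 0.0575) or replicate 2 (0.141 and 0.0600), and that at 24 h was not kept without replicate 2 (0.80, adjusted p 0.0647).

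Cd69 encodes the partner protein that removes S1PR1 from the surface and is also an early activation antigen (ENSMUSG00000030156; chromosome 6, 129267325 to 129275436, reverse strand, protein coding). At 0 h the control libraries had 13.89, 13.68 and 13.71 and the Ikaros libraries 13.48, 14.02 and 13.70, so that the lines overlapped. At 12 h the control libraries had 14.33, 14.44 and 13.67 and the Ikaros libraries 13.36, 13.20 and 10.98. The library of batch 4 at 10.98 was the lowest Cd69 value of all 36 libraries, and the spread of its group was 1.33 (SD, n = 3). Batch 4 also had the lowest Ikaros value at 2, 6, 18 and 24 h (13.62, 13.08, 13.24 and 13.33), though not at 0 h. Among control libraries batch 4 was the lowest at 12, 18 and 24 h (13.67, 13.86 and 14.69), and not at 0, 2 or 6 h.

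The difference of Cd69 at 12 h was -1.63 (limma, SE 0.42, adjusted p 0.00215), and without that library it was -0.87 (adjusted p 0.0380). The same call was not kept when only the compared groups were fitted (limma, adjusted p 0.107). No other time was called, with -0.64 at 6 h (limma, adjusted p 0.241), -0.80 at 18 h (adjusted p 0.102) and -0.63 at 24 h (adjusted p 0.193, 95% interval -1.49 to 0.23). With the culture batch as a block the value of -0.80 at 18 h was called (limma, adjusted p 0.0385), and with separate 0 h blocks as well (adjusted p 0.0297). Without replicate 3 the differences of Cd69 at 6 h (-0.56, limma, adjusted p 0.0423) and 18 h (-0.89, adjusted p 0.00174) were called, as was its level in Ikaros cells at 24 h against 0 h (0.71, adjusted p 0.00798), which was 0.35 with all libraries (adjusted p 0.489). All Ikaros libraries lay below all control libraries at 6, 12 and 24 h. At 24 h the margin was narrow, with Ikaros libraries at 14.25, 14.66 and 13.33 and the lowest control library at 14.69. Within batches 1, 3 and 4 the difference at 24 h was -0.46, -0.07 and -1.36. Ikaros cells at 12 h stood at -1.22 against 0 h (limma, adjusted p 0.0184), which without the batch 4 library was -0.45 and not called (adjusted p 0.294). That call was also not kept with only the compared groups (limma, adjusted p 0.184), without replicate 2 (adjusted p 0.0936) or without replicate 3 (adjusted p 0.0764).

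Control cells had Cd69 at 14.70, 14.73 and 14.69 at 24 h, 0.95 above 0 h, which was not called (limma, adjusted p 0.379). Within each library, S1pr1 minus Cd69 was -3.85 ± 0.33 in control and -5.00 ± 0.40 in Ikaros cells at 0 h, and -4.34 ± 0.26 and -2.90 ± 0.94 at 24 h (SD, n = 3), so that the Ikaros libraries changed from the lower to the higher ones.

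**Figure D2:**
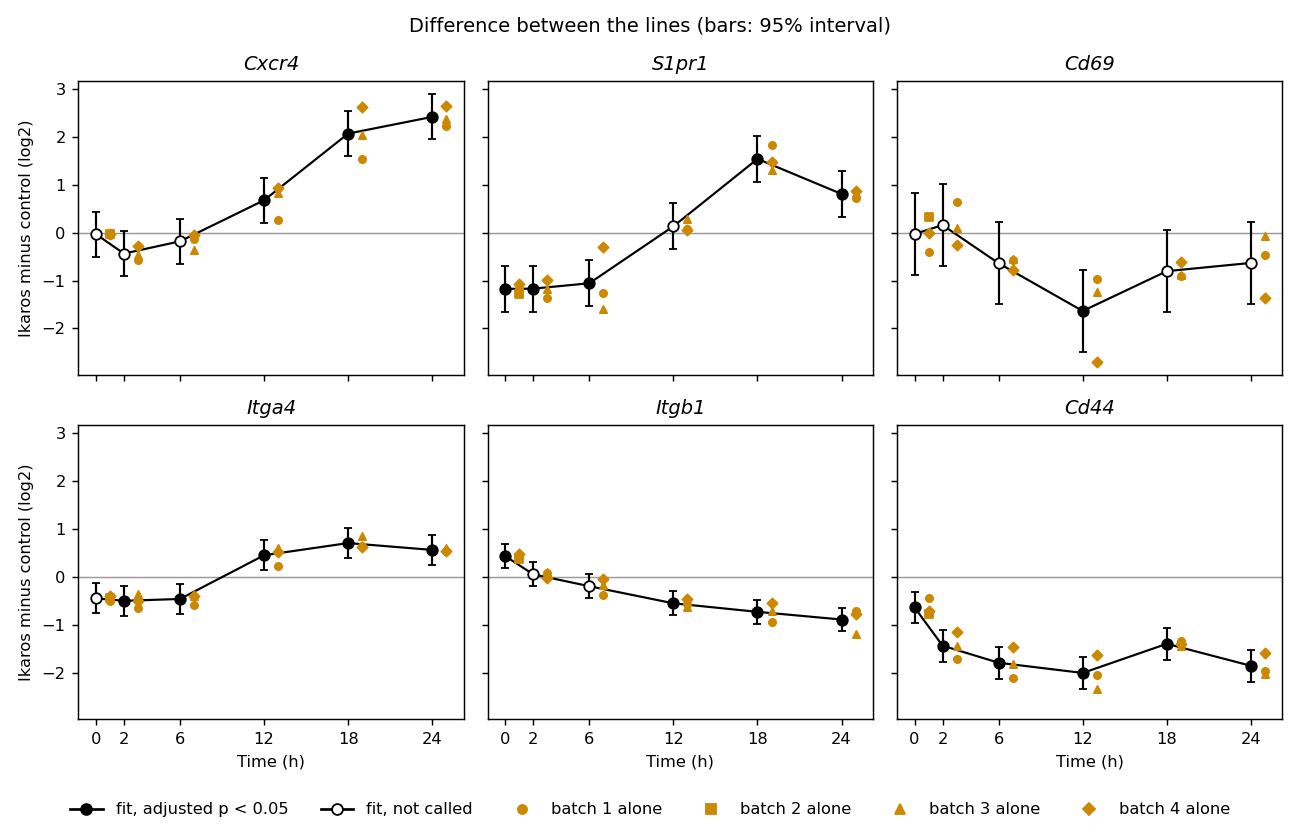
Ikaros minus control difference in log2 expression (y axis, the same in all panels) against time in hours for each receptor gene. Circles in black are the fitted difference with its 95% interval, filled where the adjusted p is under 0.05, and the coloured marks beside them are the difference within each culture batch, among which Cd69 in batch 4 at 12 h lies at -2.69 and those in batches 1 and 3 at -0.97 and -1.24.

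Itga4 and Itgb1, the chains of VLA-4, went in opposite directions. Itga4 (ENSMUSG00000027009; chromosome 2, 79255426 to 79333123, forward strand, protein coding) overlaps Cerkl on the other strand, which is in the table at a mean of 9.66, and the strand setting of the counting is not given in the sources used here. Its level at 0 h was 13.04, 12.94 and 12.77 in control cells and 12.53, 12.51 and 12.37 in Ikaros cells. At 24 h it was 12.95, 12.89 and 12.82 in control cells and 13.48, 13.50 and 13.37 in Ikaros cells. The Ikaros libraries were all lower at 0 and 2 h and all higher at 12, 18 and 24 h.

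Itgb1 (ENSMUSG00000025809; chromosome 8, 128685654 to 128733200, forward strand, protein coding) encodes the beta chain that also pairs with other alpha chains. Its level at 0 h was 13.80, 13.72 and 13.75 in control cells and 14.25, 14.09 and 14.23 in Ikaros cells. At 24 h it was 13.75, 13.81 and 13.65 in control cells and 13.04, 12.62 and 12.88 in Ikaros cells. The Ikaros libraries were all higher at 0 h and all lower at 12, 18 and 24 h, while the control group means stayed between 13.66 and 13.77.

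For Itga4 the difference was -0.45 at 0 h, not called (limma, adjusted p 0.0717), -0.50 at 2 h (adjusted p 0.0211) and -0.46 at 6 h (adjusted p 0.0189). It was 0.45 at 12 h (limma, adjusted p 0.0160), 0.71 at 18 h (adjusted p 0.000253) and 0.57 at 24 h (SE 0.15, adjusted p 0.00212), when the level was 1.48-fold higher in Ikaros cells. The 0 h value of -0.45 was called with the culture batch as a block (limma, adjusted p 0.00217) and with only the compared groups (adjusted p 0.0483). For Itgb1 the difference was 0.44 at 0 h (limma, adjusted p 0.0217), 0.06 after 2 h, -0.19 after 6 h (adjusted p 0.221) and -0.55 after 12 h (adjusted p 0.000523). It was -0.73 at 18 h (limma, adjusted p 1.10e-05) and -0.89 at 24 h (SE 0.12, adjusted p 4.29e-07), a level 1.85-fold lower. In Ikaros cells against their own 0 h, Itgb1 stood at -0.63 after 6 h, -1.0 after 12 h and -1.34 after 24 h (limma, adjusted p 0.000227, 1.80e-07 and 3.18e-10), and Itga4 at 0.98 at 24 h (adjusted p 3.37e-06).

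Within each library, Itga4 minus Itgb1 was -0.84 ± 0.12 in control and -1.72 ± 0.14 in Ikaros cells at 0 h, and -0.85 ± 0.07 and 0.60 ± 0.24 at 24 h (SD, n = 3). These are differences of 2 log2 levels on a scale normalized for length, and the Ikaros values passed from below the control values to above them between 6 h (-1.26 against -0.998) and 12 h (0.14 against -0.86). The call of Itgb1 at 0 h was not kept without any 1 of the replicates (limma, adjusted p 0.126, 0.344 and 0.0697 without replicates 1, 2 and 3), nor that of Itga4 at 2 h (0.0691, 0.200 and 0.0580). Without replicate 2 the calls of Itga4 at 6 h (limma, adjusted p 0.161), 12 h (0.255) and 24 h (0.0723) were not kept either, nor was that at 12 h without replicate 3 (0.0614). Fits of only the compared groups gave Itga4 adjusted p-values of 0.171, 0.177 and 0.0620 by limma for 2, 6 and 12 h.

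Cd44, the hyaluronan receptor (ENSMUSG00000005087; chromosome 2, 102811141 to 102901665, reverse strand, protein coding), was lower in Ikaros cells at all 6 times, with no overlap at any of them. At 0 h its level was 12.43, 12.48 and 12.58 in control cells and 12.00, 11.72 and 11.87 in Ikaros cells. At 2 h it was 12.59, 12.40 and 11.79 in control cells and 10.88, 10.95 and 10.64 in Ikaros cells. At 24 h it was 12.50, 12.47 and 12.28 against 10.53, 10.45 and 10.69.

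The difference of Cd44 was -0.63 at 0 h (limma, SE 0.16, adjusted p 0.0109), -1.43 at 2 h (adjusted p 2.26e-07), -1.79 at 6 h (adjusted p 2.35e-09) and -2.01 at 12 h (adjusted p 1.11e-10), when the level was 4.01-fold lower in Ikaros cells. It was -1.40 at 18 h (limma, adjusted p 3.28e-08) and -1.86 at 24 h (adjusted p 1.30e-10). Ikaros cells were already 1.04 below their own 0 h level at 2 h on the log2 scale, a value of -1.04 (limma, adjusted p 4.43e-05), and Cd44 had the largest change of the 6 genes in that comparison. From 2 h to 24 h the difference changed by -0.42, which was not called (limma, adjusted p 0.133). Of these 6 calls the one at 0 h was not kept without 1 of the replicates, with -0.73 without replicate 1 (limma, adjusted p 0.0714) and -0.57 without replicate 2 (adjusted p 0.358).

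How much the lines had moved apart since 0 h was tested as the change of their difference, which uses the 0 h libraries in every comparison. The change was called in 0 of the 6 genes after 2 h (3.10% of all genes), in 2 after 6 h (15.9%), and in 5 after 12, 18 and 24 h each (29.7%, 43.0% and 48.4%). At 2 h the unadjusted p was under 0.05 in 2 genes, and Cd44 had -0.80 (limma, adjusted p 0.0522), called with the culture batch as a block (adjusted p 0.0308). At 24 h the change was 2.45 for Cxcr4 (limma, adjusted p 5.32e-07), 1.98 for S1pr1 (adjusted p 1.76e-05), 1.01 for Itga4 (adjusted p 0.000322), -1.22 for Cd44 (adjusted p 7.07e-05), -1.33 for Itgb1 (adjusted p 3.92e-07) and -0.60 for Cd69 (adjusted p 0.420). At 12 h the change of Cxcr4 was 0.71, not called (limma, adjusted p 0.102), but was called with the block (adjusted p 0.0409), and that of Cd69 was -1.61 (adjusted p 0.0408) and was not called without the Ikaros library of batch 4 (-0.84, adjusted p 0.173).

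From 2 h to 24 h, a comparison within the treated cultures, the change was called in 4 of the 6 genes (47.3% of all genes), with 2.86 for Cxcr4 (limma, adjusted p 5.29e-08), 1.98 for S1pr1 (adjusted p 2.10e-05), 1.06 for Itga4 (adjusted p 0.000197) and -0.94 for Itgb1 (adjusted p 5.69e-05). The F test over all 5 changes from 0 h called 5 of the 6 genes (59.8% of all genes), and Cd69 was not among them (limma, adjusted p 0.106) except with the block (adjusted p 0.0219), with separate 0 h blocks (adjusted p 0.0148) and without replicate 3 (adjusted p 0.00440). In Ikaros cells against their own 0 h, 2 of the 6 genes were called after 2 h (19.2% of all genes), 3 after 6 h (32.8%), and 5 after 12, 18 and 24 h each (46.1%, 54.6% and 60.6%). With the block the count at 2 h was 4, since Cxcr4 (-0.68, limma, adjusted p 0.0152) and Itga4 (-0.30, adjusted p 0.0288) joined Cd44 and Itgb1. Without replicate 1 Cxcr4 was also called at 2 h (-0.74, limma, adjusted p 0.0495). The call of Itgb1 at 2 h (-0.36, limma, adjusted p 0.0375) was not kept without replicate 1, 2 or 3 (adjusted p 0.0989, 0.150 and 0.250) or with only the compared groups (adjusted p 0.141). Control cells had 0 of the 6 genes called by limma at every time, against 0.0470%, 5.10%, 0.0549%, 0.478% and 0.470% of all genes at 2, 6, 12, 18 and 24 h, and the unadjusted p was under 0.05 in 0, 1, 1, 1 and 2 of them.

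The other genes of these pathways were taken from 8 lists, in which 107 of 162 genes had a row. Over all genes at 24 h, 31.0% were higher in Ikaros cells, 31.9% were lower and 62.9% were called in all. The counts below were not shown to be particular to these lists. They compare the lines at 24 h, not Ikaros cells with their own 0 h. Among other chemokine receptors, 9 of 19 were present, and at 24 h 4 were higher in Ikaros cells, 2 lower and 3 not called, with a median difference of 0.95. Ccr2, a receptor for monocyte chemoattractants, had a level of 12.11 ± 0.10 in the control libraries and 4.42 ± 0.46 in the Ikaros libraries at 24 h (SD, n = 3), which differ by -7.69 (limma, SE 0.29, adjusted p 1.23e-17). Earlier differences of Ccr2 were -0.42 at 0 h, -2.15 after 2 h and -4.07 after 6 h. Cxcr2, a neutrophil chemokine receptor, stood at -2.42 at 24 h, and Cx3cr1, the fractalkine receptor, and the atypical receptor Ccrl2 at 3.92 and 1.86. Of the ligands, 2 of 11 were present, and Spp1 (osteopontin, a ligand of CD44 and of alpha 4 integrins) was lower by limma, at -1.92.

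Of other integrin subunits, 12 of 24 were present, with 5 higher, 1 lower and 6 not called at 24 h and a median of 0.55. Before the drug, at 0 h, 4 were already higher, 1 lower and 7 not called, with a median of 0.36. Itgb3, the platelet and osteoclast beta chain, had levels of 5.22 ± 0.34 in control and 8.67 ± 0.09 in Ikaros libraries at 0 h, and of 5.59 ± 0.47 and 11.56 ± 0.70 at 24 h (SD, n = 3). The difference of Itgb3 at 24 h was 5.97, that of Itgam, the myeloid alpha M chain, was 4.24, and that of Itgb4, a laminin-binding beta chain, was -0.81. In the machinery that activates integrins and builds focal adhesions, 29 of 35 genes were present, with 9 higher, 11 lower and 9 not called and a median of -0.17. The kinase Lyn (1.57) and Rassf5, an activator of integrins (1.55), had the largest positive differences that the naming rule allows. Parvb (-3.07) and Tns3 (-1.52), which link integrins to actin, had the largest negative ones.

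Of G protein, Rgs and Rac signalling genes, 25 of 29 were present, with 9 higher, 7 lower and 9 not called and a median of 0.17. Rhoh, a GTPase of blood cells, was higher by 3.54 and Pik3r5, a subunit of the PI3K below G protein-coupled receptors, by 2.05, and Rgs3 (-1.67), which damps such receptors, and Elmo1 (-1.44), part of a Rac activator, were lower. Of sphingosine 1-phosphate receptors and enzymes, 6 of 12 were present, with 4 higher, 0 lower and 2 not called and a median of 0.70, among them the exporter Spns2 (2.06) and the receptor S1pr4 (1.77). In this list 3 genes were already higher at 0 h and 0 lower, with a median of 0.53. Of other adhesion molecules, 19 of 27 were present, with 11 higher, 4 lower and 4 not called and a median of 0.77. Cd22, a B cell lectin, had levels of 6.23 ± 0.26 in control and 10.97 ± 0.35 in Ikaros libraries at 24 h (SD, n = 3). Cd97 differed by 2.03, while Jam2 and Cd9 stood at -1.71 and -1.55. The means of Jam2 at 24 h were low, at 5.75 in control and 4.05 in Ikaros cells. Other named genes also had both 24 h means under 9.51, the 25th percentile of the gene means. These were Cxcr2, Cx3cr1, Ccrl2, Itgam, Parvb, Rgs3, Spns2 and Cd9. All genes together had a median of -0.01 at 24 h.

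The 5 transcription factors of homing receptor genes were all present, with 2 higher, 2 lower and 1 not called at 24 h and a median of 0.23. Foxo1, which drives Il7r in lymphocytes, differed by -0.35 at 0 h, 0.76 after 6 h and 2.13 after 24 h (limma, adjusted p 0.00951, 1.38e-07 and 5.60e-17), and Foxo3 by 1.72 at 24 h. Tcf7 and Lef1, partners of beta-catenin, stood at -2.26 and -1.49. The means of Tcf7 at 24 h were low, at 8.13 in control and 5.88 in Ikaros cells. Klf2, a direct activator of S1pr1 in lymphocytes, stood at 1.45 at 12 h (limma, adjusted p 0.0286), 1.91 at 18 h (adjusted p 0.00337) and 0.23 at 24 h (adjusted p 0.723), and was not called at 0, 2 or 6 h.

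**Figure D3:**
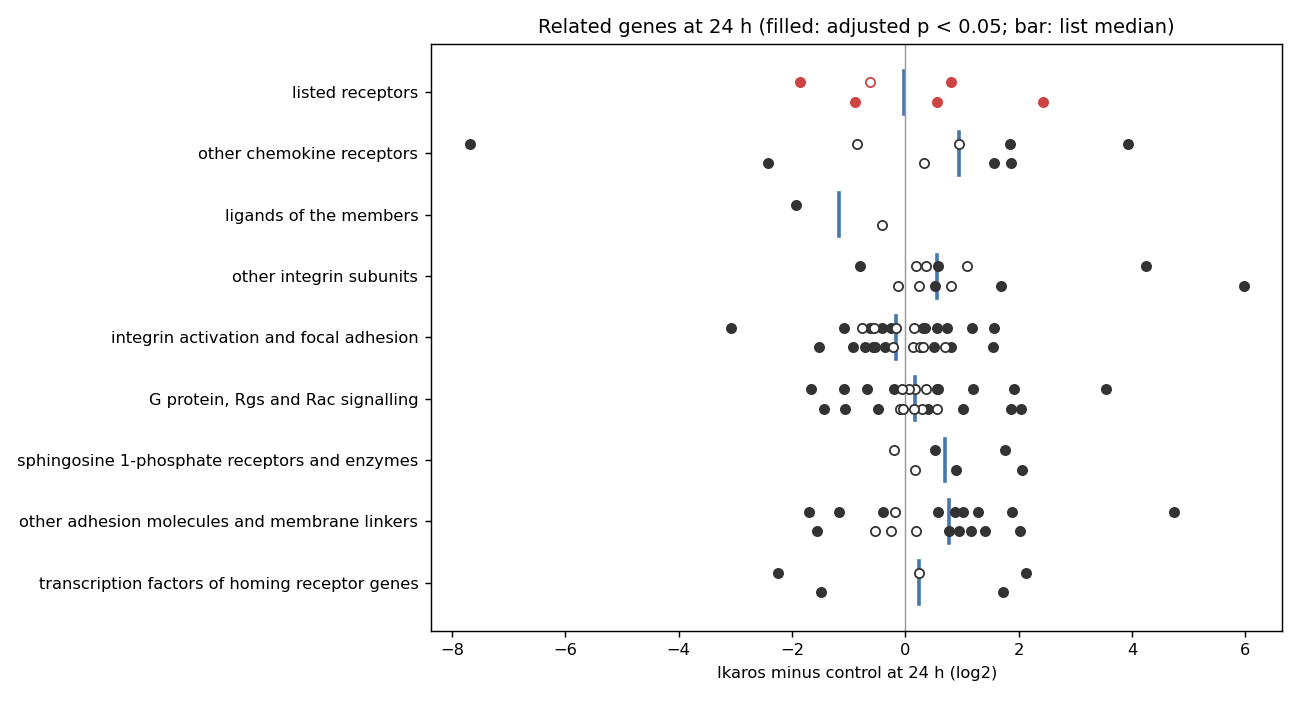
Ikaros minus control difference in log2 expression at 24 h (x axis) for each gene of the pathway lists (rows), filled where the adjusted p is under 0.05, with a blue bar at the median of the list. The 6 receptor genes are in red with a median of -0.03, and the largest difference in the plot is that of Ccr2 at -7.69.

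Genes whose course over the 12 group means was most like that of a receptor were picked by Pearson correlation among genes at or above the median mean level. These correlations describe 12 points that share libraries in groups of 3, and they carry no test. Klhl42 (r = 0.986) and Bcl7a (r = 0.981) were closest to Cxcr4. Il2ra (r = 0.962), the interleukin 2 receptor alpha chain, and Mafk (r = 0.933) were closest to S1pr1, and Il2ra went from 10.08 in Ikaros cells at 0 h to 14.40 at 24 h. Rinl (r = 0.991) and Lrrc47 (r = 0.977) were closest to Cd44, Tox4 (r = 0.959) and the GTPase Rac2 (r = 0.957) to Itga4, and Stk16 (r = 0.985) and Ifitm2 (r = 0.971) to Itgb1. Cd69 had lower values for its closest genes, Snora31 (r = 0.915) and 2410004N09Rik (r = 0.889). Among the 6 receptors the highest value was that of Itga4 with S1pr1 (r = 0.883) and the lowest that of Itga4 with Itgb1 (r = -0.801).

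**Figure D4:**
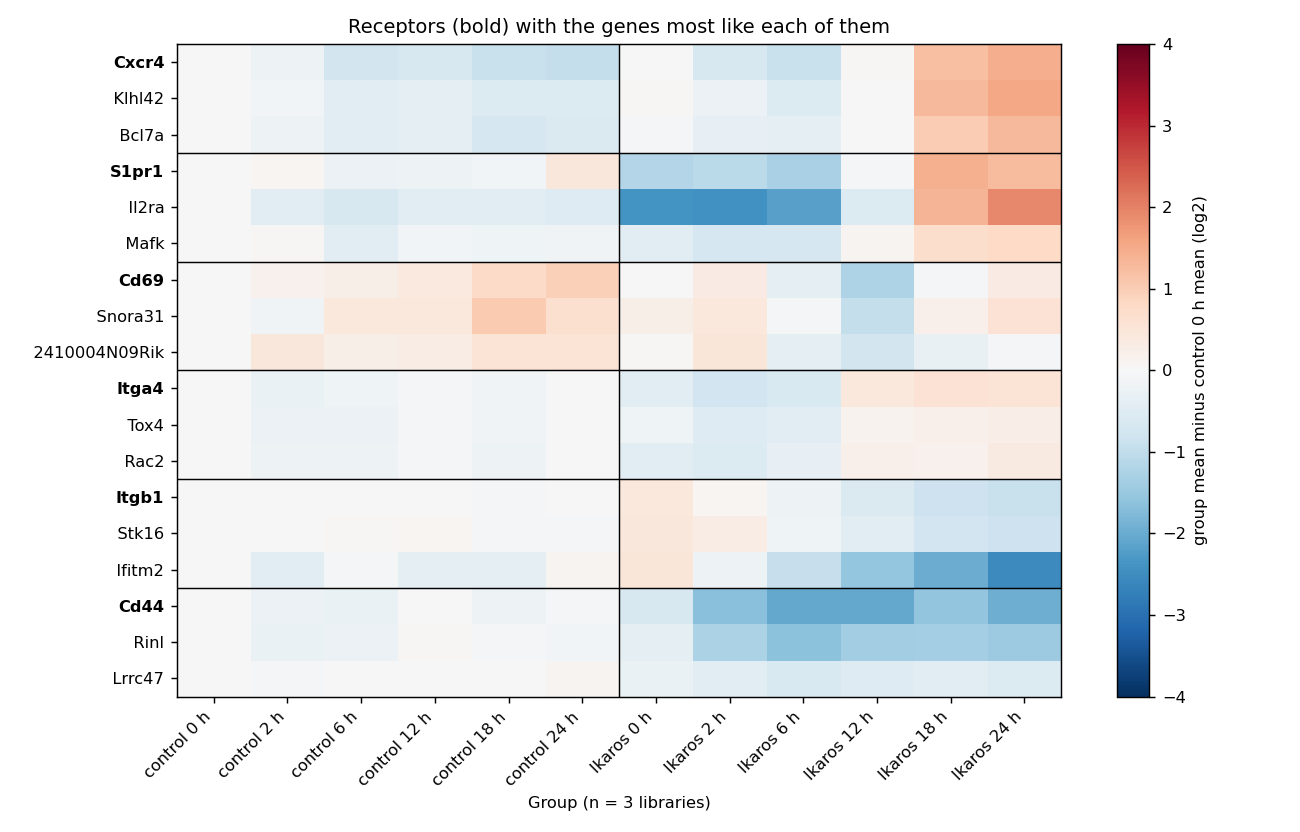
Group mean minus the control 0 h mean in log2 units (colour, blue below and red above 0) for each receptor (bold) and the genes most like it (rows), in the 12 groups of 3 libraries (columns). Cxcr4 and its companions turn red in Ikaros cells at 18 and 24 h, and Cd44 is blue in Ikaros cells from 0 h on.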

How the data were processed

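Strand-specific mRNA-seq of B3 cells gave 36 libraries, 18 from each line, grouped by the labels. The authors trimmed the reads, aligned them to mm10 with TopHat2 keeping unique best hits, counted genes with HTSeq, normalized with cqn for GC content and length, and took out library preparation effects by ComBat in its non-parametric form. The deposited values have a log scale, taken as log2 as cqn builds it, with a constant that puts the lowest value of the table at exactly 1. The strand setting and tool versions are not given in the sources used here. All 36 value columns matched a sample, and no 2 libraries shared over 0.384% of their values. The table holds no counts, so the depth behind a value is unknown from it (the study records read totals for each sequencing run, not used here), and 3 libraries a group limit the precision. ComBat before deposition takes out variation that a later fit cannot see, so the errors may be too small.

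One limma 3.58.1 model (R 4.3.3, lmFit, contrasts.fit, eBayes) with 12 group means was fitted to all 12762 genes, with Benjamini-Hochberg adjustment of its p-values across the whole table. The fit was also run on simulated data with independent noise, no batch effect and no ComBat step. That run cannot show whether the errors are too small here. Replicates are separate culture batches. The batch number in the labels pairs control and Ikaros cultures of a time, and the deviations of the 18 pairs from their group means correlated at -0.0620 to 0.507 (median 0.127, 12 above 0.1). Positions are from GENCODE M21 (GRCm38, the same build as mm10), in which 98.7% of the genes were found by identifier, and promoters from RefSeq (GRCm38.p6, with 4 of 6 genes matched).

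The members and lists were chosen with earlier results of these data known. The genes named were all members, Ikzf1, the 2 genes most like each member, and Klf2 and Foxo1. Each list gave the 2 largest positive and 2 largest negative line differences at 24 h among called genes whose libraries do not overlap. Some items these rules cover are not reported here. Alternatives to this fit had the labels' batch number as a replicate block, also with separate 0 h blocks, a filter at the 25th percentile of the mean (9571 genes), quantile normalization, eBayes with trend and robust settings, only the compared groups, and leaving out each replicate. The first of these blocks takes a batch number at 0 h and later as the same batch, which is not stated. Leaving out the Ikaros 12 h library of batch 4 was added after seeing the data.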

Additional observations from a re-analysis of the deposited data

Results flagged for a closer look

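These results stood out because the Ikaros minus control difference at a later time differed from that at an earlier time by a limma test of that change itself, at an adjusted p under 0.05. There were 21 of them, all on the log2 scale. From 0 h to 6 h the change was -1.16 for Cd44 and -0.63 for Itgb1. From 0 h to 12 h it was -1.37 for Cd44, -0.99 for Itgb1, -1.61 for Cd69, 0.90 for Itga4 and 1.31 for S1pr1. From 0 h to 18 h it was 2.10 for Cxcr4, 2.72 for S1pr1, 1.15 for Itga4, -0.76 for Cd44 and -1.17 for Itgb1. From 0 h to 24 h it was 2.45 for Cxcr4, 1.98 for S1pr1, 1.01 for Itga4, -1.22 for Cd44 and -1.33 for Itgb1. From 2 h to 24 h it was 2.86 for Cxcr4, 1.98 for S1pr1, 1.06 for Itga4 and -0.94 for Itgb1. All changes from 0 h share the 0 h libraries, which came from separate collections. An effect of the occasion common to both lines cancels in this contrast. One that differs between the lines cannot be told apart from the response to the drug. The Ikaros minus control difference itself changed sign in S1pr1 and Itga4, from negative at the early times to positive at the late times. For Itgb1 that difference went from positive to negative. Of the changes, 6 lost their call in at least 1 alternative. For Cd69 from 0 h to 12 h these were without the Ikaros library of batch 4 at 12 h (-0.84, limma, adjusted p 0.173), without replicate 1 (-2.13, adjusted p 0.0868), without replicate 2 (-1.62, adjusted p 0.259) and with only the compared groups (adjusted p 0.128). Cd44 from 0 h to 6 h was not called without replicate 1 (limma, adjusted p 0.0870), nor was Itgb1 without replicate 1 or 2 (adjusted p 0.124 and 0.168). S1pr1 from 0 h to 12 h was not called without replicate 1 or 2 (limma, adjusted p 0.0563 and 0.138), nor was Itga4 without replicate 2 (adjusted p 0.133). Cd44 from 0 h to 18 h was not called without replicate 1 or 2 (limma, adjusted p 0.0832 and 0.0872).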

How the results depend on the processing

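Each of the 138 results for the 6 genes was recomputed under the alternatives, 1194 values in all. Of these, 1089 kept their sign and their side of the threshold, 49 were no longer called, 30 were newly called and 26 had the opposite sign, none of the last in a called result. Of 70 called results, 49 were called in every alternative. Quantile normalization changed no call, and the culture batch as a replicate block changed 10, each given beside its result, and no other. Separate 0 h blocks cannot give a line against its own 0 h, and a fit of only the groups compared cannot give the F test. Causes of these shifts were not tested. The values carry no counts, so depth could not be varied.

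The number of the 6 genes called moved as follows. Only the compared groups gave 1 in place of 3 at 6 h, 2 in place of 5 at 12 h for Ikaros against control, and 1 in place of 2 for Ikaros cells at 2 h against 0 h. For the change from 0 h to 2 h both replicate blocks, the filter and the trend and robust settings each gave 1 in place of 0. The replicate block gave 4 in place of 2 for Ikaros cells at 2 h, and 1 in place of 0 for control cells at 6, 18 and 24 h. The filter gave 1 at 24 h, and the trend and robust settings 1 at 6 h and 1 at 24 h for control cells. Without 1 replicate at a time, Ikaros against control gave 0 to 2 at 0 h, 1 to 2 at 2 h, 1 to 4 at 6 h, 3 to 5 at 12 h and 3 to 5 at 24 h. The change from 0 h gave 0 to 1 at 2 h, 0 to 2 at 6 h and 2 to 5 at 12 h, and Ikaros cells at 2 h against 0 h gave 1 to 2.

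Opposite signs arose in 20 results, none called with all libraries or with its sign turned. Of these, S1pr1 in Ikaros cells at 6 h against 0 h was -0.12 and was called without replicate 3, at -0.58 (limma, adjusted p 0.00630). With the replicate block Itgb1 in control cells was -0.015 at 2 h and -0.034 at 6 h. Without 1 replicate at a time, Cd69 ran from -0.21 to 0.17 at 0 h and from -0.076 to 0.37 at 2 h for Ikaros against control, and from -0.24 to 0.40 for the change from 0 h to 2 h. The change of S1pr1 ran from -0.048 to 0.096 at 2 h and from -0.20 to 0.33 at 6 h, and that of Itga4 from -0.036 to 0.016 at 6 h. In Ikaros cells against 0 h, S1pr1 ran from -0.14 to 0.30 at 2 h and from -0.58 to 0.11 at 6 h, and Cd69 from -0.28 to 0.20 at 18 h. In control cells against 0 h, the 2 h values ran from -0.39 to 0.12 for Cxcr4, -0.44 to 0.036 for Cd44, -0.023 to 0.071 for Itgb1 and -0.10 to 0.21 for S1pr1. Those at 6 h ran from -0.11 to 0.11 for Itgb1, and those at 12 h from -0.13 to 0.11 for Cd44, -0.10 to 0.020 for Itga4 and -0.076 to 0.084 for Itgb1. S1pr1 at 18 h ran from -0.29 to 0.072, and at 24 h Cd44 ran from -0.16 to 0.026 and Itgb1 from -0.075 to 0.020.

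The lowest counts of Ikaros against control came without 1 replicate, with 318 in place of 1063 genes at 0 h, 804 of 2432 at 2 h and 3769 of 5850 at 12 h, and with only the compared groups at 6 h, 2150 of 4759. The filter gave 701 at 0 h and only the compared groups 860 at 2 h. Changes from 0 h fell without 1 replicate to 54 of 396 genes at 2 h, 584 of 2024 at 6 h, 1548 of 3795 at 12 h, 3077 of 5492 at 18 h and 4056 of 6180 at 24 h, and reached 661 at 2 h with separate 0 h blocks. That from 2 h to 24 h fell to 3775 of 6037, and the F test to 4064 of 7626. Ikaros cells against 0 h gave 645 to 3720 in place of 2444 genes at 2 h, 1904 in place of 4182 at 6 h and 3598 in place of 5888 at 12 h at the lowest. Control cells gave 0 to 2585 in place of 651 genes at 6 h, 0 to 129 in place of 61 at 18 h, and 0 at the lowest in place of 6, 7 and 60 at 2, 12 and 24 h.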
